A study of Mus musculus with 18 samples.

Results

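A set of 10 genes of protein folding in the endoplasmic reticulum (ER) and of the unfolded protein response were followed across the caput epididymis, the head region of the sperm-maturing duct. They were chosen by name, with earlier results of these data known: Hspa5, Dnajb9, Herpud1, Xbp1, Sec61b, Pdia4, Hsp90b1, Sdf2l1, Creld2 and Manf. Each of the 10 symbols had a row in all 18 deposited tables, which list 53819 gene entries, and all 10 were among the 18618 genes tested after the filter on low counts. The values are counts of RNA sequencing reads per gene in caput tissue of C57BL/6J mice. At the first time, 3 groups of 3 libraries each were labelled 10 weeks: Control, 6% EtOH and 10% EtOH (ethanol). The other 3 groups of 3 libraries carried the same treatments followed by cessation, which the series title sets at 1 month. No source used here states the mice's ages, the route of the ethanol or the length of treatment before cessation. The labels give each library an identifier of its own but do not say that libraries came from separate animals, so a p-value here reflects only how far these libraries vary, which may be technical.

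The ER folds the secreted and membrane proteins of a cell. When unfolded proteins accumulate there, the sensors IRE1, PERK and ATF6 start the unfolded protein response. IRE1 removes a short intron from Xbp1 mRNA to give an active transcription factor, ATF6 is released by cleavage in the Golgi, and both raise chaperones and degradation factors, while PERK slows translation and favours the transcription factor ATF4 and its target Ddit3 (CHOP). The caput epithelium secretes large amounts of protein into the lumen, so its cells carry an extensive ER. Counts per gene cannot separate the spliced from the unspliced form of Xbp1.

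The 10 genes cover several roles. Hspa5 (BiP, GRP78) is the HSP70 chaperone of the ER lumen. Dnajb9 (ERdj4) and Sdf2l1 work with it as cochaperones, and Manf is a secreted protein that binds it. Hsp90b1 (GRP94) is the HSP90 of the ER, Pdia4 (ERp72) is a protein disulfide isomerase, and Creld2 is an ER protein induced by stress. Sec61b is a subunit of the channel through which new proteins enter the ER, Herpud1 is a membrane protein of ER-associated degradation, and Xbp1 encodes the transcription factor of the IRE1 branch.

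Promoters of 4 of the genes are shown because they hold the sequence elements known for binding the transcription factors of the unfolded protein response. The ER stress response element (ERSE) was searched as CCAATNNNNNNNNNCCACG and its second form (ERSE-II) as ATTGGNCCACG, on both strands, in windows from 250 bases before to 50 bases after each gene start in RefSeq annotation (GRCm38.p6). ERSE was found in 39 of 32851 promoters of the table (0.119%), and ERSE-II in 12 (0.0365%). Of the 10 genes, 9 had an entry, and Manf had none. ERSE lay in Hspa5, Hsp90b1 and Creld2, and ERSE-II in Herpud1. A further element, TGACGTGG, was in 222 promoters (0.676%) and in none of these 9, which says only that these letters are absent from the windows. In the sequences below, written 5′ to 3′ along the gene, capitals mark the matches. The Hspa5 window is chr2:34771840-34772139 (plus strand), that of Hsp90b1 chr10:86705395-86705694 (minus strand), that of Herpud1 chr8:94386179-94386478 (plus strand), and that of Creld2 chr15:88819396-88819695 (plus strand).
Hspa5: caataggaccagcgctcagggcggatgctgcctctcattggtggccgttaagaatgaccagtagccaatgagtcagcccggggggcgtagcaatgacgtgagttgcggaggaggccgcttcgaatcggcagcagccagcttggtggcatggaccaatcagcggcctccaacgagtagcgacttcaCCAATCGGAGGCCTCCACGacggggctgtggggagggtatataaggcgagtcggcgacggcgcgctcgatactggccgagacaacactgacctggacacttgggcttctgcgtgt
Hsp90b1: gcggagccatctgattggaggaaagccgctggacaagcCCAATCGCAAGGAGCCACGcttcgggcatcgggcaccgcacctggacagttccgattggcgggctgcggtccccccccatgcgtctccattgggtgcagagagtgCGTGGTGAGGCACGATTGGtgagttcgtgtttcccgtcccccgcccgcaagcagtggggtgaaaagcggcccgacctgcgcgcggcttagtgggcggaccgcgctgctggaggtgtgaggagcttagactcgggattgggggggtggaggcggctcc
Herpud1: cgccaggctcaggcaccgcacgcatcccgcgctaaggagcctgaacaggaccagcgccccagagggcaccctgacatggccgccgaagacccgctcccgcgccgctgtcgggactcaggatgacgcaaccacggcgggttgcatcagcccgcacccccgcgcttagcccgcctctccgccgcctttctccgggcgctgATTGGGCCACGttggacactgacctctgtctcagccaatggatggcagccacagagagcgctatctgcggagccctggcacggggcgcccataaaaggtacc
Creld2: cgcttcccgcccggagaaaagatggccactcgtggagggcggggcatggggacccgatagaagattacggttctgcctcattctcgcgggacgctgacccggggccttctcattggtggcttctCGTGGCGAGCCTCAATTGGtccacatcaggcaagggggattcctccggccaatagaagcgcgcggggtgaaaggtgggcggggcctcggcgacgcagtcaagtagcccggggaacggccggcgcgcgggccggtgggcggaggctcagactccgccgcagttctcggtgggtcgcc
The ERSE of Hspa5 began 65 bases before the start and ended 47 bases before it. Hsp90b1 held 2 copies, one ending 194 bases before the start and one on the opposite strand from 107 to 89 bases before it. The Creld2 match was on the opposite strand, from 126 to 108 bases before the start, and the ERSE-II of Herpud1 lay 52 to 42 bases before it. Read in the direction of the element, the matches differed in their 9 spacer bases.
Hspa5 match: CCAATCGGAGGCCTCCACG
Hsp90b1 match, far: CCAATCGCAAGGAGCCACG
Hsp90b1 match, near: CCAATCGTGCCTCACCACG
Creld2 match: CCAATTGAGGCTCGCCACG
Herpud1 match: ATTGGGCCACG
Of 142 genes of the wider pathway with a promoter entry, ERSE was present in 7: Calr, Canx, Derl3, Dnajc3, Ero1b, Pdia6 and Syvn1. Among the same 142, ERSE-II was in 2 (Dnajb11 and Krtcap2) and TGACGTGG in 8. A match is a description of the sequence and does not show binding.

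Libraries held 10.7M to 21.1M assigned reads, 15.6M to 21.1M at 10 weeks and 10.7M to 17.2M after cessation. Levels are given as CPM, read counts divided by the library total on a common scale, after TMM scaling, a correction for library composition whose factors ran from 0.914 to 1.203. Libraries of the same group varied more after cessation: the biological coefficient of variation, the spread of a gene between replicates beyond counting error, was 11.6% in the controls of 10 weeks, 14.5% with 6% EtOH and 23.0% with 10% EtOH, against 35.1%, 29.9% and 27.8% in the matching groups after cessation. Principal cell markers of the caput (15 of 15 detected) identified the tissue, at a summed level between 41268 and 123750 CPM. For replicate 1 of 6% EtOH after cessation, the identifier in the label differs from the one in its deposited table, so some results on that group are also given without it. The label of replicate 3 of 10% EtOH at 10 weeks holds an identifier of another form than the rest, and values for that group are likewise given without it. Control replicate 3 after cessation stood apart in stress genes, as described below.

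Per kilobase of exon sequence, which allows genes to be compared, Hspa5 was the most abundant of the 10, with a mean of 719 CPM per kb over the 18 libraries. Hsp90b1 followed at 505 and Pdia4 at 354 CPM per kb. Sdf2l1 (135), Creld2 (107), Sec61b (95.3), Manf (81.2), Herpud1 (78.2), Xbp1 (55.1) and Dnajb9 (52.4 CPM per kb) formed a lower tier. Each of the 10 lay above at least 95.8% of the tested genes on this scale. Raw counts behind these levels ran from 848 reads (Sec61b) to 61238 reads (Hspa5) per library. In some groups of 10 weeks the spread between libraries was itself small, as for Dnajb9 with 6% EtOH (mean 114 CPM, SD 2.62). There, counting error was not small beside the spread.

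**Figure D1:**
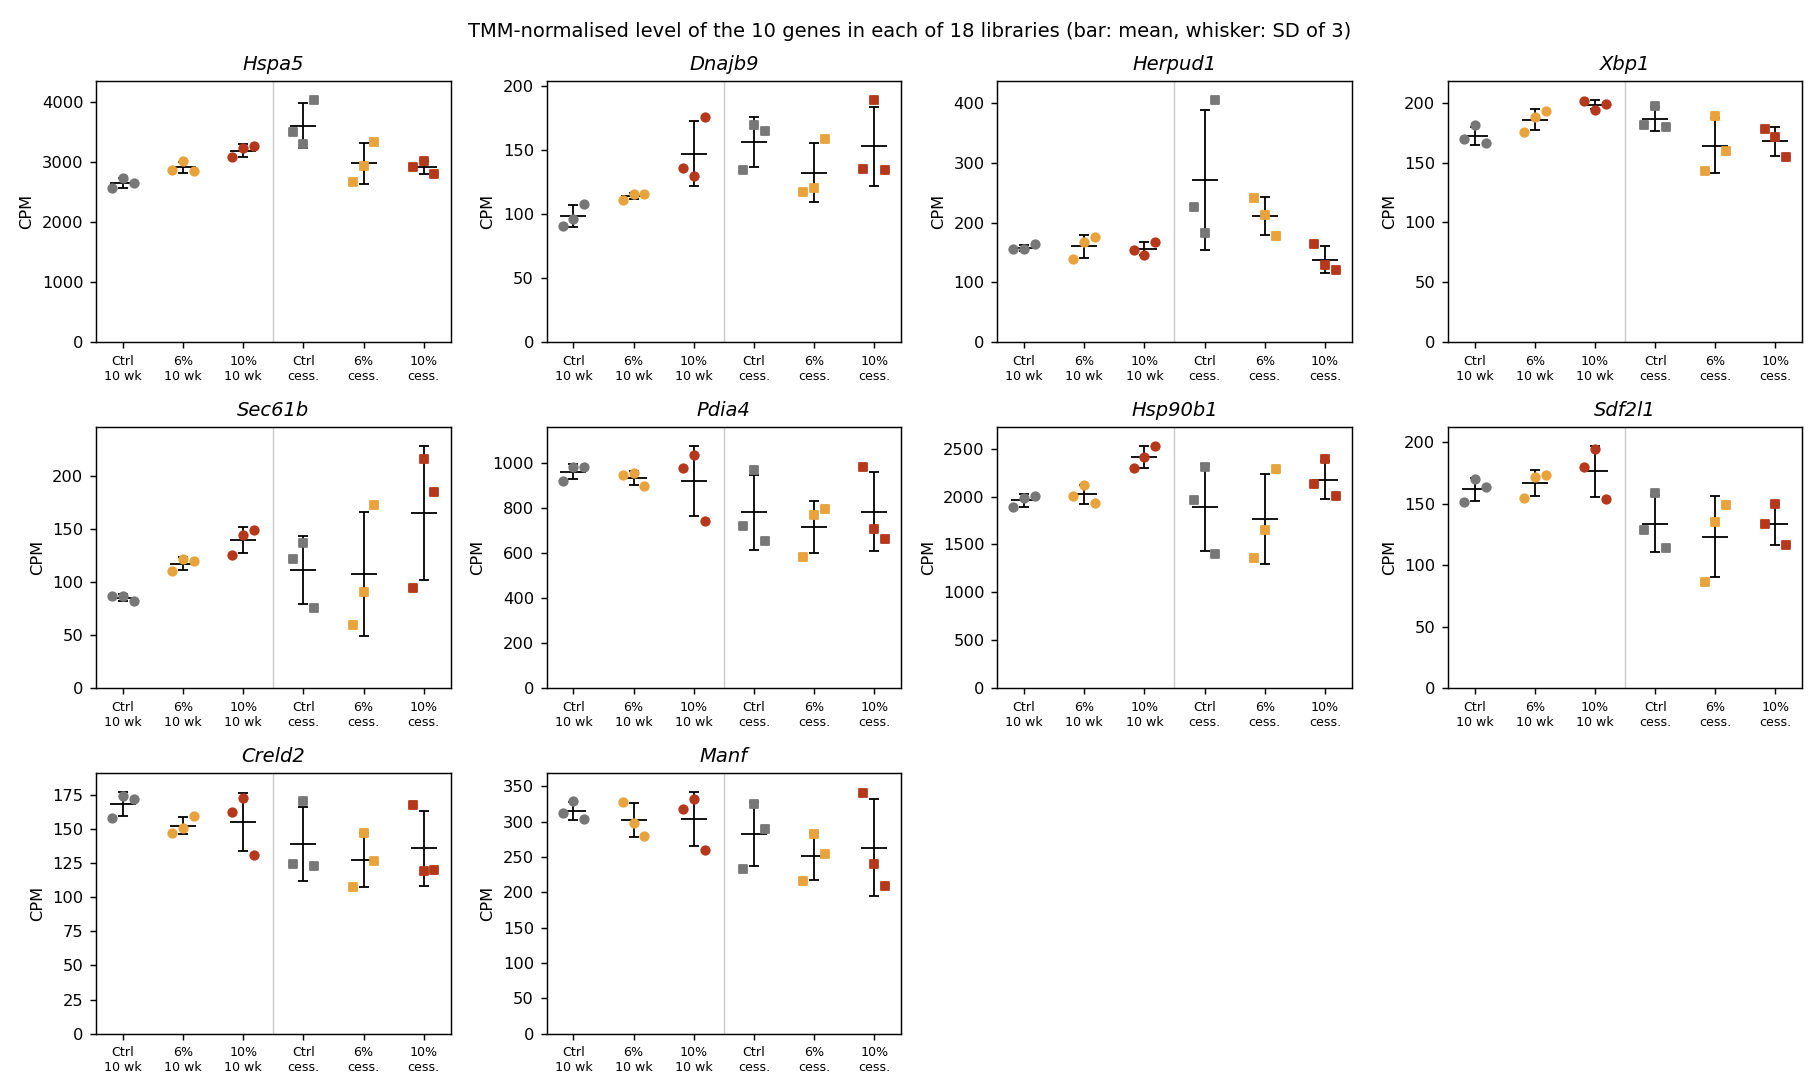
Level of each of the 10 genes (y axis, TMM-normalised CPM from 0) in every library, by group (x axis: control, 6% and 10% EtOH at 10 weeks as circles, then after cessation as squares); bars are means and whiskers the SD of 3 libraries. Hspa5, Dnajb9 and Sec61b step up from control to 6% to 10% EtOH at 10 weeks with no overlap, and the libraries after cessation are more scattered.

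At 10 weeks, Hspa5, Dnajb9 and Sec61b were higher with each dose of EtOH and highest with the larger dose, with no overlap between the 3 groups. Xbp1 and Hsp90b1 were higher with 10% EtOH alone by the same measure. Herpud1, Pdia4, Sdf2l1, Creld2 and Manf overlapped the controls at both doses. In the test over all 18 libraries none of these differences passed, and in the test restricted to the 9 libraries of 10 weeks Sec61b and Dnajb9 passed for 10% EtOH.

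Hspa5 was at 2571, 2727 and 2651 CPM in the 3 controls of 10 weeks. With 6% EtOH it was at 2866, 3011 and 2850 CPM, and with 10% EtOH at 3075, 3222 and 3266 CPM. Every library with EtOH was above every control, and every library with 10% EtOH was above every library with 6%. The group means were 2650 ± 78.0, 2909 ± 89.1 and 3188 ± 100.04 CPM (SD, n = 3 each). The log2 fold change was 0.13 ± 0.16 (SE) with 6% and 0.27 ± 0.16 with 10% EtOH, a ratio of 1.20 for the larger dose. Neither passed in edgeR (adjusted p = 1 and 0.469).

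Dnajb9, which targets misfolded proteins to BiP, stood at 91.0, 96.5 and 108 CPM in controls. It was at 111, 116 and 116 CPM with 6% EtOH and at 136, 130 and 176 CPM with 10% EtOH. The 3 groups again followed the dose without overlap, and replicate 3 of 10% EtOH was the highest library. The log2 fold change was 0.21 ± 0.16 with 6% and 0.58 ± 0.16 with 10% EtOH (ratio 1.49; edgeR adjusted p = 0.299 for the larger dose). It was 0.43 without replicate 3 of 10% EtOH, and 0.30 once trends with transcript length and GC content were removed from each library. Dnajb9 has the lowest GC content of the 10 genes, at 40.6%.

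Sec61b showed the largest difference among the 10 genes at 10 weeks. Its level was 87.1, 87.2 and 81.8 CPM in controls, 111, 122 and 120 CPM with 6% EtOH, and 126, 145 and 149 CPM with 10% EtOH. No library of one group reached the next, and the means were 85.4 ± 3.10, 118 ± 5.85 and 140 ± 12.2 CPM (SD, n = 3 each). The ratio to control was 1.38 with 6% (log2 fold change 0.46 ± 0.32) and 1.64 with 10% EtOH (0.71 ± 0.33, edgeR adjusted p = 0.357). With length and GC trends removed the larger dose gave 0.91.

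Hsp90b1 was at 1886, 1983 and 2009 CPM in controls and at 2011, 2125 and 1934 CPM with 6% EtOH. With 10% EtOH it reached 2297, 2411 and 2527 CPM. The smaller dose overlapped the controls and the larger did not. Its log2 fold change for 10% EtOH was 0.30 ± 0.20 (edgeR adjusted p = 0.527), and 0.14 with length and GC trends removed. Xbp1 was at 169, 181 and 166 CPM in controls, at 176, 188 and 193 CPM with 6% EtOH and at 202, 194 and 199 CPM with 10% EtOH. Only the larger dose was clear of the controls, by a log2 fold change of 0.20 ± 0.12 (edgeR adjusted p = 0.449), which was 0.35 with length and GC trends removed.

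The remaining genes gave smaller values. Herpud1 was at 155, 155 and 164 CPM in controls and at 154, 146 and 168 CPM with 10% EtOH. Pdia4 stood at 923, 982 and 983 CPM in controls and at 982, 1037 and 743 CPM with 10% EtOH, replicate 3 being the lowest library of that time. The same library was the lowest of its group for Sdf2l1, Creld2 and Manf. The log2 fold changes of Herpud1, Pdia4, Sdf2l1, Creld2 and Manf lay between -0.14 and 0.13 at both doses, each within 1 SE of 0. Without replicate 3 of 10% EtOH, Pdia4 was at 0.07 in place of -0.06 and Manf at 0.05 in place of -0.05, while Sec61b was at 0.66, Hspa5 at 0.25, Hsp90b1 at 0.26 and Xbp1 at 0.20.

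Of the 10 genes, 3 with 6% EtOH and 5 with 10% EtOH lay above all controls without overlap, beside 9.67% and 15.2% of all tested genes. The order control, 6%, 10% without overlap held for 3 of the 10 and for 1.49% of all tested genes. The 10 were chosen with earlier results of these data known, and each lies above at least 95.8% of tested genes in level per kb. Shares of all genes, here and after cessation, are therefore descriptions and no test of the set. The median log2 fold change of the 10 was 0.05 with 6% and 0.16 with 10% EtOH, where the median of all genes was -0.01 at either dose. In edgeR over 18 libraries none of the 10 passed an adjusted p of 0.05 at either dose, and neither did any other gene (0% of 18618 genes for 6% EtOH and 0% for 10% EtOH). At an unadjusted p under 0.05, none of the 10 and 440 of all genes were counted for 6% EtOH, and 2 of the 10 (Dnajb9 and Sec61b) and 2501 of all genes for 10% EtOH. DESeq2 called none of the 10 at either dose, with 0 and 73 genes in all. For 10% EtOH, limma voom with group weights called Dnajb9 alone of the 10 (adjusted p = 0.0448), beside 119 of all genes. For the same dose, edgeR without the filter on low counts called 2, Dnajb9 and Sec61b, beside 736 of all genes.

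The test over 18 libraries shares 1 estimate of the spread between times that differ in it (coefficient of variation 16.6% in the 9 libraries of 10 weeks and 30.9% in the 9 after cessation). Fitted on the 9 libraries of 10 weeks alone, 10% EtOH against control gave Sec61b a log2 fold change of 0.73 ± 0.09 (edgeR adjusted p = 0.00643) and Dnajb9 0.59 ± 0.12 (adjusted p = 0.0237). Hsp90b1 (0.31 ± 0.09, adjusted p = 0.0583), Hspa5 (0.28 ± 0.09, adjusted p = 0.0733) and Xbp1 (0.21 ± 0.07, adjusted p = 0.0919) did not pass. In this fit 6.17% of 17154 genes passed, and 3.92% passed as higher. Without control replicate 1, Sec61b was at 0.74 and Dnajb9 at 0.54 (edgeR adjusted p = 0.0803 and 0.113), and without control replicate 3 at 0.69 and 0.66 (adjusted p = 0.0564 and 0.0865). Without control replicate 2 they were at 0.74 and 0.58 (adjusted p = 0.0392 and 0.0658), and Sec61b alone passed. Leaving out any 1 library of 10% EtOH kept both calls. For 6% EtOH the same fit called none of the 10, and the smallest adjusted p among them was 0.193, for Sec61b.

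**Figure D2:**
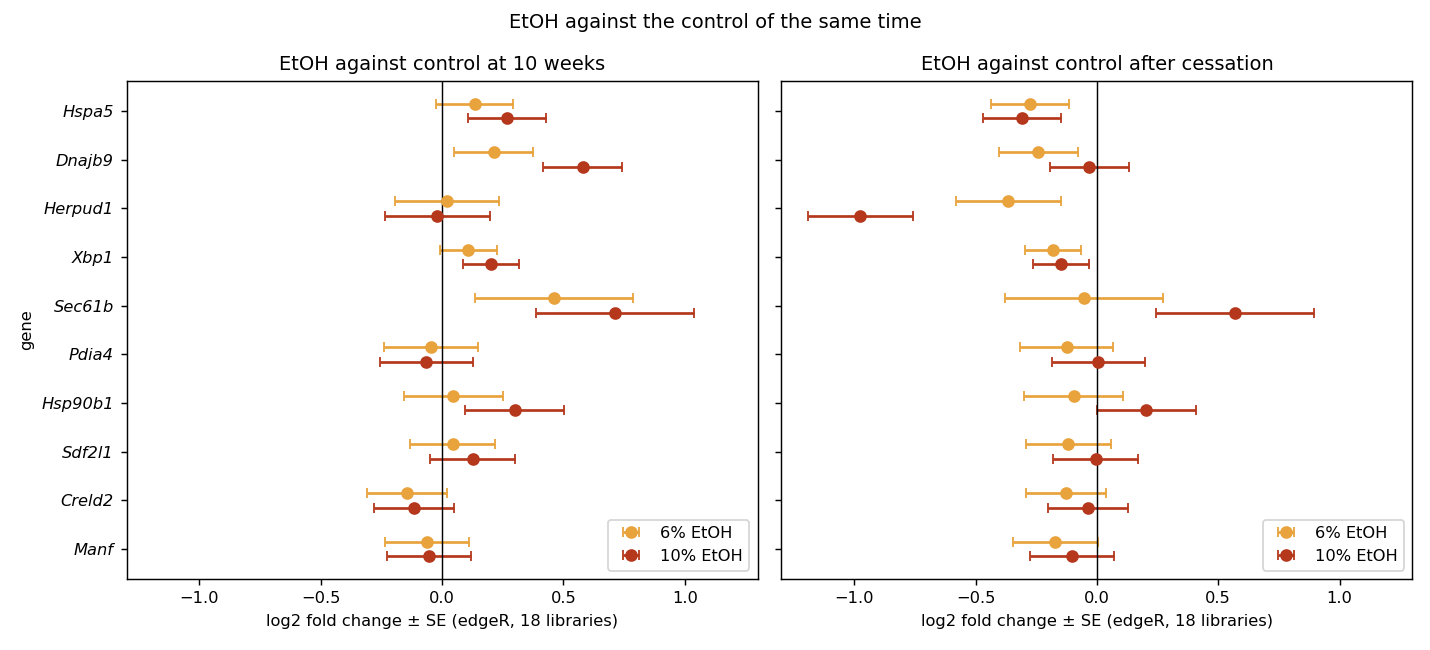
Log2 fold change with its SE (x axis) of each gene (y axis) for 6% and 10% EtOH against the control of the same time, at 10 weeks (left) and after cessation (right), from edgeR over 18 libraries. Sec61b and Dnajb9 lie farthest to the right at 10 weeks, and Herpud1 with 10% EtOH lies farthest to the left after cessation.

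Summed marker levels also differed between the groups of 10 weeks, and of those given here the principal cell sum alone followed the dose without overlap. The summed level of the 15 principal cell markers was 77854 to 86006 CPM in controls, 91597 to 103677 CPM with 6% EtOH and 103860 to 123750 CPM with 10% EtOH. Macrophage markers (13 of 13 detected) summed to 228 to 261, 276 to 308 and 287 to 453 CPM, and fibroblast markers (10 of 10) to 625 to 774, 679 to 857 and 889 to 1020 CPM. Markers of T and NK cells (11 of 11) summed to 250 to 370, 384 to 496 and 467 to 646 CPM, although the mean of their centred log2 levels was -0.04 to 0.05, -0.17 to 0.09 and -0.27 to 0.01. Of 13 markers of plasma and B cells, which also carry an extensive ER, 7 passed the filter and 5 had fewer than 10 reads in every library; their sum was 281 to 315, 314 to 323 and 319 to 346 CPM. The shortest 10% of genes (exon length under 1138 bases) had a median centred log2 level of -0.11 to -0.07 in controls, -0.07 to 0.05 with 6% and -0.03 to 0.03 with 10% EtOH, and Sec61b and Sdf2l1 are the shortest of the 10 genes (1271 and 1108 bases). The part of these features in the differences was not tested. In bulk tissue, a lower level from fewer cells of a type and one from less RNA per cell cannot be told apart.

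After cessation, Hspa5, Herpud1 and Xbp1 were lower with 10% EtOH than in every control, and with 6% EtOH all 10 genes were below control on average but overlapped it. No difference passed the test.

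Herpud1 gave the largest difference. It was at 226, 183 and 404 CPM in the controls after cessation, at 241, 213.1 and 177 CPM with 6% EtOH, and at 164, 129 and 121 CPM with 10% EtOH. All 3 libraries with 10% EtOH were below all controls, and control replicate 3 was far above the rest. The log2 fold change with 10% EtOH was -0.97 ± 0.22 (ratio 0.509, edgeR adjusted p = 0.721). It was -0.57 without control replicate 3, and -1.19 with an adjusted p of 0.0127 without control replicate 2. With 6% EtOH it was -0.36 ± 0.22, and 0.04 without control replicate 3, so its sign turned on that library. Without replicate 1 of 6% EtOH the value for that dose was -0.50.

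Hspa5 was at 3501, 3288 and 4022 CPM in controls after cessation. It was at 2663, 2924 and 3337 CPM with 6% EtOH and at 2905, 3019 and 2804 CPM with 10% EtOH. The 10% group lay below all controls and 1 library of the 6% group lay among them. The log2 fold changes were -0.28 ± 0.16 with 6% and -0.31 ± 0.16 with 10% EtOH (edgeR adjusted p = 1 and 0.766). Without replicate 1 of 6% EtOH, Hspa5 was at -0.22 with that dose. Xbp1 was at 181, 198 and 179 CPM in controls and 178, 171 and 155 CPM with 10% EtOH, a log2 fold change of -0.15 ± 0.12 (edgeR adjusted p = 0.819). The gap between its highest treated library and lowest control was narrow.

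Sec61b had the widest scatter of the 10 genes in both EtOH groups after cessation. It ranged over 122, 137 and 75.4 CPM in controls, 59.1, 91.1 and 172 CPM with 6% EtOH, and 94.8, 216 and 185 CPM with 10% EtOH. The 3 groups overlapped throughout. With 10% EtOH its log2 fold change was 0.57 ± 0.32, between 0.33 and 0.85 when 1 library was left out. Dnajb9 was at 134, 170 and 165 CPM in controls and 135, 189 and 134 CPM with 10% EtOH, and Hsp90b1 at 1960, 2305 and 1401 CPM in controls and 2130, 2394 and 2003 CPM with 10% EtOH. Both overlapped their controls. Pdia4, Sdf2l1, Creld2 and Manf had log2 fold changes between -0.10 and 0.01 with 10% EtOH.

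With 10% EtOH after cessation, 3 of the 10 genes were below all controls without overlap, beside 3.97% of all tested genes, and with 6% EtOH none was, beside 2.01%. The log2 fold changes with 6% EtOH ran from -0.36 to -0.05 with a median of -0.15. Their common sign rested on single libraries: 7 of 10 were below 0 without replicate 1 of 6% EtOH (median -0.06), the library with the mismatched identifier, and 5 of 10 without control replicate 2 (median -0.02). In edgeR none of the 10 and no other gene passed for either dose (0% of all genes for 6% and 0% for 10% EtOH). At an unadjusted p under 0.05, none of the 10 was counted for 6% and 1, Herpud1, for 10% EtOH, beside 301 and 1240 of all genes. DESeq2 called none of the 10 at either dose, and 1 and 0 genes in all, and its adjusted p for Herpud1 with 10% EtOH was 0.0707. edgeR without the filter on low counts called Herpud1 for 10% EtOH, beside 407 of all genes.

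The difference between the effect of EtOH after cessation and its effect at 10 weeks was tested directly. With 10% EtOH it was -0.58 ± 0.23 for Hspa5, -0.61 ± 0.23 for Dnajb9, -0.95 ± 0.31 for Herpud1 and -0.35 ± 0.16 for Xbp1 on the log2 scale. These 4 had an unadjusted p under 0.05, as did 1386 of all genes, and none passed in edgeR (adjusted p = 0.645, 0.645, 0.645 and 0.671). The Herpud1 value was -0.55 without control replicate 3 after cessation. With 6% EtOH the difference was below 0 for 9 of the 10 genes, between -0.51 and 0.01, and no unadjusted p among the 10 was under 0.05 (561 of all genes were). Without control replicate 2 after cessation it was below 0 for 6 of the 10, and without replicate 1 of 6% EtOH after cessation for 7. The Sec61b value of -0.51 was -0.24 without replicate 1 and -1.03 without replicate 3 of 6% EtOH after cessation. No gene passed for either dose (0% of all genes for 6% and 0% for 10% EtOH). DESeq2 called none of the 10, and 0 and 2 genes in all.

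Controls of the 2 times differed from each other in part of the set. Hspa5, Dnajb9 and Herpud1 were higher in all 3 controls after cessation than in all 3 controls of 10 weeks, and the other 7 genes overlapped. These 3 of 10 stand beside 25.1% of all tested genes that did not overlap in either direction. The mean of Hspa5 was 3604 ± 377 against 2650 ± 78.0 CPM (SD, n = 3), a log2 difference of 0.44 ± 0.16 (edgeR adjusted p = 0.150). Dnajb9 had a mean of 156 ± 19.3 against 98.5 ± 8.76 CPM (0.66 ± 0.16, adjusted p = 0.0879 in edgeR). For Herpud1 it was 271 ± 117 against 158 ± 5.07 CPM, a log2 difference of 0.78 ± 0.22 (edgeR adjusted p = 0.104) that was 0.38 without control replicate 3. None of the 10 passed in edgeR, where 0.118% of all genes did, and 3 had an unadjusted p under 0.05 (3774 of all genes did). DESeq2 called these 3 (adjusted p = 0.00189, 0.0107 and 0.0233), beside 993 of all genes. With length and GC trends removed the differences were 0.30, 0.25 and 0.63, against a median of all genes that moved down by 0.14. For Hspa5, Dnajb9, Xbp1 and Sdf2l1 the control group had the highest mean of the 3 cessation groups and the lowest of the 3 groups of 10 weeks. For Sdf2l1 the means of control and 10% EtOH after cessation were close, at 133.8 and 133.3 CPM. The share of all genes with this order is not given here.

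Averaged over treatments, the 3 cessation groups were compared with the 3 groups of 10 weeks. Time, the age of the mice and any batch of collection or sequencing cannot be told apart in this comparison or in that of the controls. Dnajb9 rose, by a log2 value of 0.31 ± 0.09 (edgeR adjusted p = 0.0344), and Sdf2l1 fell, by 0.37 ± 0.10 (adjusted p = 0.0252). In this comparison 17.9% of all genes passed, so 2 of 10 is near the background. Pdia4 (-0.30 ± 0.11, edgeR adjusted p = 0.0644), Creld2 (-0.24 ± 0.10, adjusted p = 0.0797) and Herpud1 (0.33 ± 0.12, adjusted p = 0.0686) did not pass. Both calls depended on single libraries. Without control replicate 3 after cessation, Dnajb9 was at 0.30 and Sdf2l1 at -0.33 (edgeR adjusted p = 0.0569 and 0.0513). Without replicate 1 of 6% EtOH after cessation, Sdf2l1 passed (-0.32, edgeR adjusted p = 0.0344) and Dnajb9 did not (0.32, adjusted p = 0.0507). With length and GC trends removed, which moved the median of all genes by -0.16, Dnajb9 was at -0.02, and Sdf2l1 (-0.49), Pdia4 (-0.48), Hsp90b1 (-0.39), Creld2 (-0.37) and Manf (-0.34) passed as lower. The share of higher genes among all calls was 59.8% without that correction, 30.9% with it, and 49.3% with limma voom and group weights. Calls among the 10 ranged from 0 to 5 when 1 library was left out: there were 5 without control replicate 2 or 10% EtOH replicate 1 after cessation, and 0 without any one of 6 others, namely control replicate 2, 6% EtOH replicate 3 and 10% EtOH replicates 1 and 2 of 10 weeks, and control replicate 3 and 10% EtOH replicate 3 after cessation.

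Immediate early genes, the fast first response of cells to a stimulus, differed far more between the times. Their summed level over 20 genes was 657 to 824 CPM in the 9 libraries of 10 weeks and 1088 to 3393 CPM in the 9 after cessation, highest in control replicate 3. Principal cell markers summed to 41691 to 97849 CPM in controls after cessation, 41268 to 89659 CPM with 6% EtOH and 73647 to 91605 CPM with 10% EtOH. Basal cell markers (7 of 7 detected) summed to 339 to 727, 316 to 582 and 275 to 359 CPM in the same groups, and endothelial markers (9 of 9) to 68.2 to 384, 95.2 to 374 and 109 to 133 CPM. The part of these features in the differences between the times and after cessation was not tested.

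The wider pathway was described with 10 lists of 177 genes, of which 173 were tested. Over 18 libraries none of the 173 passed in edgeR for either dose at either time, and the counts at an unadjusted p under 0.05 were 3 and 22 at 10 weeks (6% and 10% EtOH), beside 2.36% and 13.4% of all genes, and 2 and 16 after cessation, beside 1.62% and 6.66%. DESeq2 called none of them, and limma voom with group weights called 1, for 10% EtOH at 10 weeks, beside 119 of all genes. The genes of smallest p for 10% EtOH at 10 weeks, none past the threshold, were Tusc3, a subunit of the oligosaccharyltransferase that attaches glycans (0.60 ± 0.17 on the log2 scale), Sar1b, a GTPase of vesicle budding from the ER (0.70 ± 0.20), Tmx3, a membrane-bound disulfide isomerase (0.94 ± 0.29), Selenof, an ER selenoprotein (0.63 ± 0.21), and Sec61g, a further subunit of the channel of Sec61b (0.74 ± 0.25). The adjusted p of each was 0.299 in edgeR. Tusc3, Sec61g and Selenof were also among the 5 of smallest p for 6% EtOH, at 0.42 ± 0.17, 0.57 ± 0.25 and 0.44 ± 0.21 (edgeR adjusted p = 1).

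Fitted on the 9 libraries of 10 weeks, 23 of 173 pathway genes passed for 10% EtOH, 21 higher and 2 lower, beside 6.17% of all genes. The lists too were chosen with earlier results of these data known, so this share is a description. In the translocon and signal peptidase list 6 of 24 were higher: Sec61g (0.76), Spcs3 (0.74), Serp1 (0.69), Ssr3 (0.55), Ssr4 (0.53) and Sec62 (0.29). Among disulfide isomerases and oxidases 5 of 17 were higher: Tmx3 (0.96), Selenof (0.64), Erp44 (0.55), Tmx1 (0.48) and Pdia3 (0.37). ER-associated degradation gave 4 of 24 (Edem3, Marchf6, Selenos and Derl2, 0.30 to 0.45), oligosaccharyltransferase 2 of 12 (Tusc3 0.61, Stt3b 0.40), cochaperones 2 of 20 (Hspa13 0.44, Sdf2 0.42), ER to Golgi transport 1 of 20 (Sar1b, 0.71), and the PERK and ATF4 list 1 of 15 (Vldlr, 0.74). The 2 lower genes were the cytosolic heat shock genes Hspa1a (-0.81) and Hspa1b (-0.68), near-identical copies whose reads the counting could have divided. No sensor or transcription factor (12 tested) and no gene of the calnexin cycle (11 tested) passed. The count of pathway calls was 0, 1 and 0 without control replicates 1, 2 and 3, and 20 to 33 when a library of 10% EtOH was left out.

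Pdia3 (ERp57), which folds glycoproteins bound to calnexin and calreticulin, shows the size of these differences. It was at 1202, 1227 and 1219 CPM in controls, at 1337, 1400 and 1293 CPM with 6% EtOH, and at 1515, 1541 and 1620 CPM with 10% EtOH. The groups followed the dose without overlap. Selenof was at 165, 170 and 176 CPM in controls, 228, 235 and 228 CPM with 6% EtOH and 249, 273 and 266 CPM with 10% EtOH, also without overlap. After cessation both genes overlapped between all groups.

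**Figure D3:**
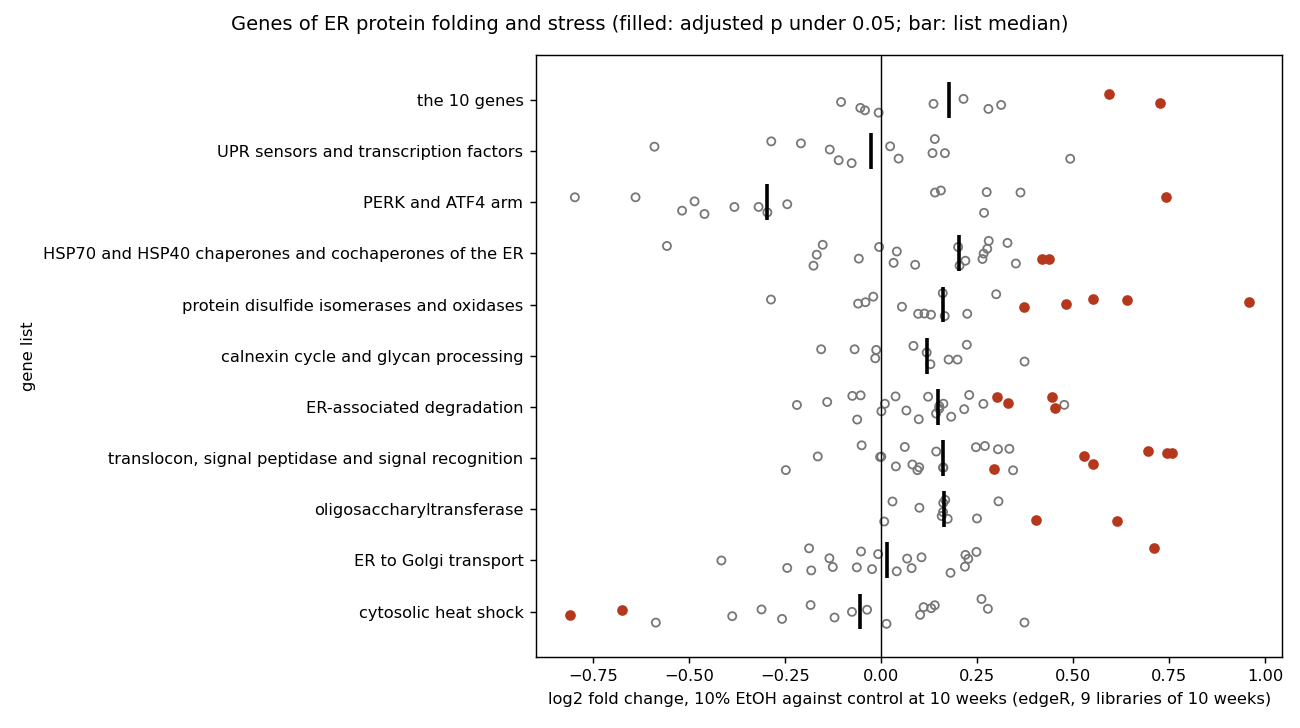
Log2 fold change for 10% EtOH against control at 10 weeks (x axis, edgeR on the 9 libraries of 10 weeks) of the 10 genes and of each pathway list (y axis); each point is a gene, filled where its adjusted p was under 0.05, bars are list medians, and vertical scatter only separates points. Filled points lie to the right in 8 rows and to the left only in the cytosolic heat shock row, and the PERK and ATF4 row has the lowest median.

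For 10% EtOH at 10 weeks over 18 libraries, the median log2 fold change was 0.19 for cochaperones, 0.15 for disulfide isomerases, 0.15 for the translocon list, 0.15 for oligosaccharyltransferase (11 of 12 above 0) and 0.13 for ER-associated degradation, beside -0.01 for all genes. For the calnexin cycle it was 0.11 (7 of 11 above 0) and for ER to Golgi transport 0.0043 (10 of 20 above 0). It was -0.31 for the PERK and ATF4 list (6 of 15 above 0), -0.04 for sensors and transcription factors and -0.07 for cytosolic heat shock. Immediate early genes had a median of -0.29.

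Genes of the PERK and ATF4 branch varied widely among the control libraries after cessation. Ddit3 (CHOP), the stress transcription factor of this branch, was between 5.77 and 11.5 CPM in all 9 libraries of 10 weeks. After cessation it was at 75.2, 15.8 and 277 CPM in controls, 91.7, 73.7 and 27.7 CPM with 6% EtOH, and 14.4, 17.9 and 12.98 CPM with 10% EtOH. Control replicate 3 had the highest level of all 18 libraries and control replicate 2 lay within the range of the 10% group. Atf4 was at 244, 176 and 481 CPM in those controls, 252, 265 and 216 CPM with 6% EtOH and 173, 166 and 144 CPM with 10% EtOH. All libraries with 10% EtOH were below all controls for Atf4.

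For 10% EtOH after cessation, the 5 pathway genes of smallest p were all of this branch. Their log2 fold changes were -3.02 ± 0.70 for Ddit3, -0.90 ± 0.24 for Atf4, -1.84 ± 0.48 for Chac1, a glutathione-degrading target of ATF4, -2.08 ± 0.57 for Atf3, a further stress transcription factor, and -2.74 ± 0.82 for Trib3, an inhibitor of signalling induced by CHOP. None passed in edgeR (adjusted p = 0.721 for the first 4 and 0.743 for Trib3). Without control replicate 2, 7 of the 173 pathway genes passed, beside 191 of all genes. Without control replicate 3, Ddit3 was at -1.59, Atf4 at -0.38, Chac1 at -1.001, Atf3 at -0.79 and Trib3 at -1.72. Trib3 and Chac1 were scarce, at 0.51 to 16.5 and 1.77 to 21.3 CPM over the 18 libraries. Among the 10 genes, Herpud1 also had its highest level in control replicate 3 and its lowest group with 10% EtOH. With 6% EtOH all 15 genes of the list were below 0 (median -0.30, beside -0.01 for all genes, edgeR adjusted p = 1 for each named gene). All 15 were compared with the same 3 controls, so they are not separate observations. Ddit3 and Atf4 were at 0.50 and 0.22 without control replicate 3.

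**Figure D4:**
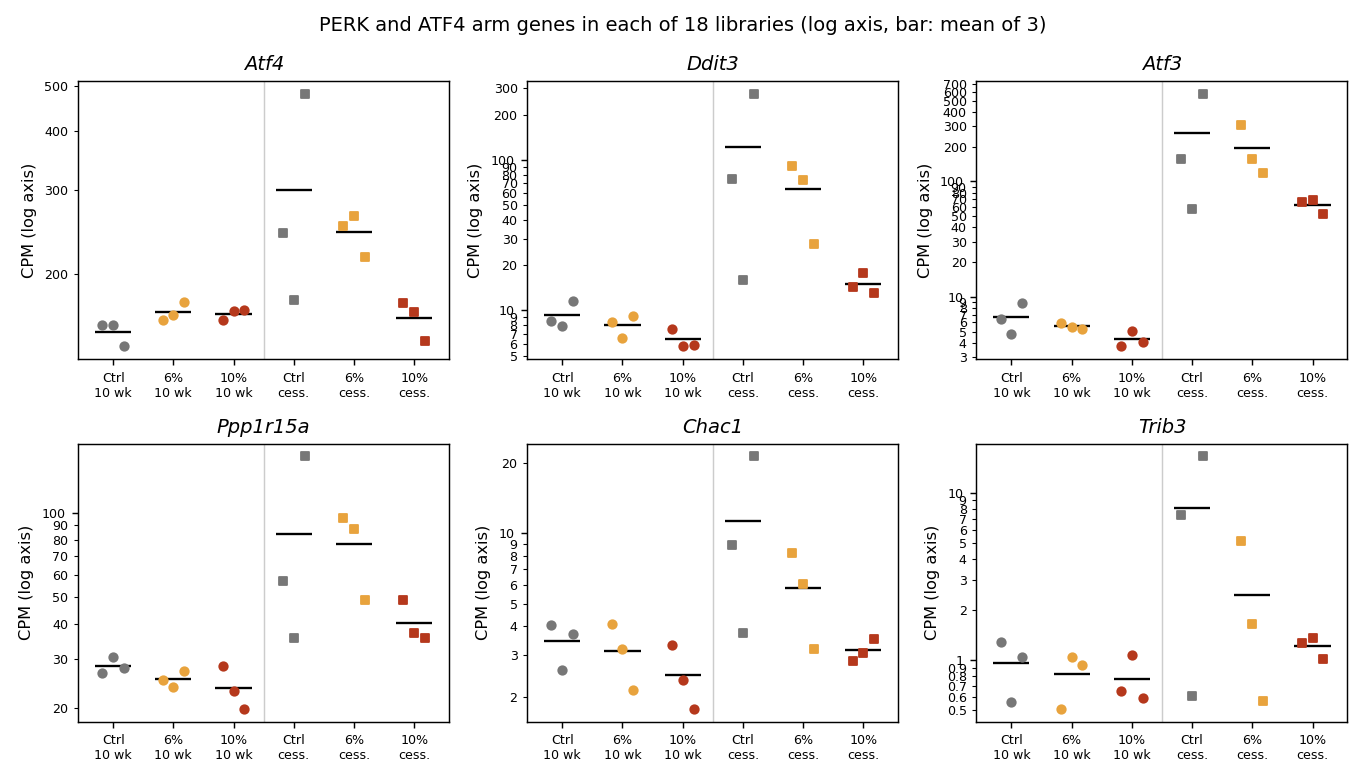
Level in CPM (y axis, log scale) of 6 genes of the PERK and ATF4 branch in every library, by group (x axis, as in the plot of the 10 genes); bars are means of 3 libraries. Control replicate 3 after cessation is the highest point in each panel, and the 10% EtOH libraries after cessation lie close together near or below the lowest control for Ddit3 and Atf4.

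Between the controls of both times, 1 of 173 pathway genes passed in edgeR, beside 0.118% of all genes: Atf3, higher after cessation by a log2 value of 5.29 ± 0.67 (adjusted p = 0.00512), which is also an immediate early gene. It did not pass without control replicate 1 or 2 of 10 weeks (edgeR adjusted p = 0.109 and 0.0956). Averaged over treatments, 64 pathway genes passed, 15 higher and 49 lower after cessation, where 17.9% of all genes passed. In the PERK and ATF4 list 7 of 15 genes rose and 1 fell. Those that rose were Atf3 (4.77 ± 0.38), Ddit3 (2.65 ± 0.41), Trib3 (1.76 ± 0.49), Ppp1r15a (1.31 ± 0.23), which restarts translation, Chac1 (0.98 ± 0.28), Nupr1 (0.88 ± 0.22) and Atf4 (0.51 ± 0.14). Cytosolic heat shock had 5 of 18 higher, with Hspa1a at 1.58 ± 0.38 and Hspa1b at 0.91 ± 0.26, and none lower. Without control replicate 3 after cessation Hspa1a was at 1.005 and Hspa1b at 0.56, and Hspa1b passed in 10 of the 18 fits that left out 1 library. Of 20 cochaperones 2 rose, Fkbp7 (0.77 ± 0.17) and Serpinh1 (0.77 ± 0.23), the collagen chaperone, which passed in 5 of those 18 fits, and 3 fell. Trib3 and Chac1 each passed in 11 of them. On the other side, 10 of 24 genes of ER-associated degradation, 9 of 20 of ER to Golgi transport, 7 of 12 of oligosaccharyltransferase, 6 of 11 of the calnexin cycle and 5 of 17 disulfide isomerases fell, with none higher in these lists. In the translocon list 5 of 24 fell and 1 rose, and 3 of 12 sensors and transcription factors fell. Of the 20 immediate early genes 19 rose and 1 fell. With length and GC trends removed 112 pathway genes passed, and with 1 library left out the count was 105, 85 and 75 without control replicate 2, 10% EtOH replicate 1 or 6% EtOH replicate 2 after cessation, 47 to 66 without 4 others, and 18 to 27 without any of the other 11.

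Across the 18 libraries the 10 genes did not vary as one. The 45 pairs had a median Pearson r of 0.24 on the log2 CPM scale, 17 were below 0, and the lowest was -0.71 (Herpud1 with Hsp90b1). Pdia4, Sdf2l1, Creld2 and Manf, a set chosen by no rule fixed beforehand, were correlated with each other. Over their 6 pairs r was between 0.65 and 0.95 (Spearman's rho 0.56 to 0.93), and between 0.48 and 0.93 after the group means were subtracted. It was between 0.62 and 0.94 when each pair was taken without the 2 libraries farthest from the median of 1 of its 2 genes. At 10 weeks alone the lowest of the 6 was 0.35 (Sdf2l1 with Manf). Sdf2l1 had as high an r with genes outside these 4, 0.73 with Hsp90b1 (0.78 within groups) and 0.70 with Xbp1, as with Manf (0.65, and 0.48 within groups). Among the 9 libraries of 10 weeks, Hspa5 varied with Sec61b (r = 0.96), Hsp90b1 (0.92), Dnajb9 (0.89) and Xbp1 (0.86). After cessation these were -0.01, -0.05, 0.52 and 0.49. Over all 18 libraries with the group means subtracted, the same 4 pairs had r of 0.28, 0.16, 0.52 and 0.10. The values for each time include the differences between its dose groups. Libraries share depth, composition and tissue makeup across genes, so these values are descriptions with no test.

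**Figure D5:**
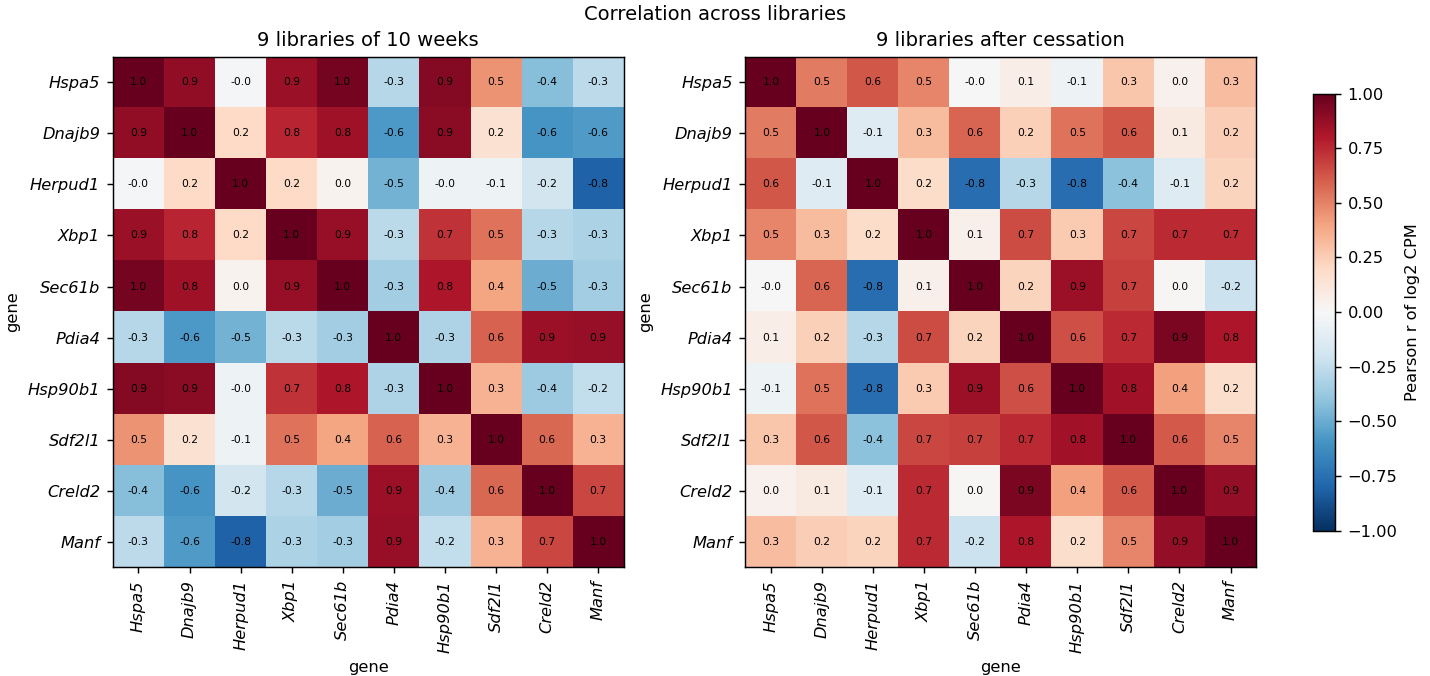
Pearson r between each pair of the 10 genes (both axes; colour scale from -1 to 1, values to 1 decimal) over the 9 libraries of 10 weeks (left) and the 9 libraries after cessation (right). Pdia4, Creld2 and Manf are correlated at both times, and Hspa5 with Sec61b and Hsp90b1 at 10 weeks. The values include the differences between dose groups.

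The mean of the 10 genes, each centred on the log2 scale, ran from -0.10 to -0.02 in controls of 10 weeks, from -0.02 to 0.05 with 6% EtOH and from 0.10 to 0.17 with 10% EtOH. After cessation the ranges were -0.02 to 0.19 in controls, -0.38 to 0.07 with 6% EtOH and -0.15 to 0.05 with 10% EtOH, and the lowest library was replicate 1 of 6% EtOH. Among 10134 other genes whose mean log2 CPM reached 3, those most like this mean over the 18 libraries were Spg21 (r = 0.85), Atp6v0d2 (0.84), Trmt6 (0.83), Pdia3 (0.83), Mmachc (0.82), Atp6v1c1 (0.82), Gfus (0.82), Tvp23b (0.82), Ankle2 (0.82) and Cdyl (0.81). After group means were subtracted their r was between 0.71 and 0.94. Pdia3 was the only gene of the pathway lists among them.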

How the data were processed

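Gene expression was measured by RNA sequencing of total RNA in 18 libraries of caput epididymis, 3 in each of 6 groups given by the labels. The deposited values are raw counts of reads per gene, not normalised. The authors used Trimmomatic, STAR and featureCounts with GRCm39 (mm39), per the submitters' processing notes. Versions, annotation, strand setting and the treatment of reads matching several genes are not given in the sources used, so genes with near-identical copies are uncertain. Tables name genes by symbol, and no coordinates of the counts' build were used.

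Counts were fitted with edgeR 4.0.16 in R 4.3.3 (robust quasi-likelihood test, 1 term per group over 18 libraries, TMM scaling, Benjamini-Hochberg adjustment over all genes tested, threshold 0.05). Genes needed a minimum count of 10 and a total of 15 by edgeR's filter, which left 18618 genes and at least 99.73% of the counts of each library. CPM are TMM scaled, and log2 CPM for correlations and list levels used a pseudocount of 0.5. The procedure was tested on simulated data. The changes planted there were larger than any of the 10 genes showed at 10 weeks. That test therefore does not show whether differences of their size are recovered. Alternatives were DESeq2 1.42.0, its size factors in edgeR, no filter, the 9 libraries of 1 time alone (17154 genes at 10 weeks, 17728 after cessation), the control libraries alone, limma 3.58.1 (voom with group weights), removal of length and GC trends (a spline with 5 degrees of freedom, 18092 genes with both values), and leaving out each library. Leaving out libraries within the 9 libraries of 10 weeks was added after the data were seen. Exon lengths and GC came from a GENCODE M21 table and promoters from RefSeq on GRCm38.p6, both matched by symbol.

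The 10 genes and the lists were chosen with earlier results of these data known. Pathway genes were named by a rule: where 5 or more passed, the 10 with the largest change whose mean log2 CPM reached 1, and otherwise those that passed with up to 5 of smallest p. Named after their values were seen were the remaining genes of the 23 that passed at 10 weeks, Atf4 in the comparison of times, the levels of Pdia3, Selenof and the PERK and ATF4 genes, and the values of that branch outside the rule. No rule fixed beforehand set Pdia4, Sdf2l1, Creld2 and Manf apart in the correlations.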

Additional observations from a re-analysis of the deposited data

Results flagged for a closer look

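For 3 of the values of the 10 genes at both doses, the effect of EtOH lay on opposite sides of its control at the 2 times in every library. The share of all tested genes that meet this rule is not given here, so these 3 cannot be called unusual. Each library with EtOH was above the mean of its controls at 10 weeks and below it after cessation. For Hspa5 the difference between the effects was -0.41 on the log2 scale with 6% EtOH and -0.58 with 10% EtOH. For Xbp1 with 10% EtOH it was -0.35. The difference itself was tested, and none of the 3 passed in edgeR (adjusted p = 0.9996, 0.645 and 0.671), nor in DESeq2 (adjusted p = 0.999, 0.104 and 0.426).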

How the results depend on the processing

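No paired analysis was possible because the labels carry no replicate numbers and nothing ties a library of one group to a library of another. Of 1550 values under the alternatives, of genes whose log2 fold change exceeded its SE over 18 libraries, 1404 kept their direction and their side of the threshold, 77 moved past it, 60 fell short of it and 9 changed sign; the cause was not tested. Counting every value of the 10 genes, also those within 1 SE of 0, 76 of 1170 changed sign. With length and GC trends removed, the time averages of Hspa5 and Dnajb9 were -0.051 and -0.024. Leaving out 1 library turned the sign of the other 7 of these 9, the lowest values being without control replicate 2 and the highest without control replicate 3 after cessation. For 6% EtOH after cessation the ranges were -0.58 to 0.042 for Herpud1, -1.45 to 0.50 for Ddit3 and -0.56 to 0.22 for Atf4. For the difference between times with 6% EtOH they were -0.60 to 0.025 for Herpud1, -0.70 to 0.084 for Atf4 and -1.22 to 0.028 for Chac1, and with 10% EtOH -1.15 to 0.065 for Ppp1r15a. Smaller values of the 10 genes turned too: after cessation, without control replicates 2 and 3, Pdia4 was at 0.19 and -0.10 with 10% EtOH, and with 6% EtOH Sec61b was at 0.13 and -0.27 and Hsp90b1 at 0.07 and -0.27.

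Calls among the 10 genes for 10% EtOH at 10 weeks numbered 2 without the filter, 2 in the 9 libraries and 1 with voom. Without the filter, 1 was called for 10% EtOH after cessation and 1 for its difference between times. Between controls there were 3 with DESeq2 and 2 without the filter. For the average over treatments there were 4 with DESeq2, 4 without the filter and 5 with length and GC trends removed. Leaving out 1 library gave 0 to 1 (10% EtOH after cessation), 0 to 2 (controls), 0 to 5 (average) and 0 to 2 (9 libraries of 10 weeks).

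Pathway calls for 10% EtOH at 10 weeks numbered 11 without the filter, 23 in the 9 libraries and 1 with voom. Without the filter there were 1 and 13 for 6% and 10% EtOH after cessation and 5 for the difference with 10%. Between controls there were 11 with DESeq2, 19 without the filter and 0 with control libraries alone, and 112 for the average with length and GC trends removed. Leaving out 1 library gave 0 to 7 (10% EtOH after cessation), 0 to 48 (controls), 18 to 105 (average) and 0 to 33 (9 libraries).

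Over all genes, calls for 10% EtOH at 10 weeks numbered 73 with DESeq2, 736 without the filter, 1059 in the 9 libraries and 119 with voom. Without the filter there were 44 for 6% EtOH at 10 weeks, 51 and 407 for 6% and 10% EtOH after cessation, and 88 and 385 for the differences between times. DESeq2 called 1 for 6% EtOH after cessation and 2 for the difference with 10%. Between controls there were 993 with DESeq2, 1740 without the filter, 0 with control libraries alone and 49 with length and GC trends removed. Leaving out 1 library gave 0 to 191 (10% EtOH after cessation), 0 to 2724 (controls), 850 to 5811 (average) and 0 to 1569 (9 libraries). Each group held 3 libraries, and the raw counts of the 10 genes were at least 848.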
